A study of Mus musculus with 2 samples.

Results

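The genes described here are 9 neuropeptide precursors: Avp, Oxt, Crh, Trh, Hcrt, Cartpt, Gal, Npy and Sst. They were taken by symbol from the GENCODE vM1 annotation of the mouse genome (build NCBIM37, mm9), which lists 37310 genes. All 9 had exon reads in each library, between 9 and 8088.

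RNA-Seq was run on whole brains of F1 hybrid embryos at stage E17.5 in a study of parent-of-origin effects on expression. The BxC brain came from a C57BL/6J mother and a CastEi/J father, and the CxB brain from a CastEi/J mother and a C57BL/6J father. There was 1 library from 1 embryo per cross, with no treatment, and both brains were chilled in liquid nitrogen at dissection. The CxB embryo was male by the paper's methods, while the sex of the deposited BxC embryo is not given in the sources used here, so cross, embryo and sex cannot be told apart. Without replicate libraries no test between the crosses was possible. Intervals below are exact at 95% and cover counting error only, and every statement is about these 2 libraries.

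A neuropeptide is cut from a longer precursor protein inside secretory granules. The cuts fall mostly at pairs of basic residues, the end of many peptides is then amidated, and the finished peptide acts on receptors coupled to G proteins. Avp and Oxt encode the hormones that hypothalamic neurons release from the posterior pituitary. Crh and Trh encode hypothalamic releasing factors for the anterior pituitary, and Hcrt encodes the orexins of lateral hypothalamic neurons. Cartpt and Gal act in feeding and neuroendocrine circuits, and Npy and Sst also mark many inhibitory neurons of the forebrain.

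The BxC library held 128944754 uniquely aligned reads of 36 bases and the CxB library 109719746. These totals sum a column of the files whose meaning was inferred from its values, and they exceed the mean yield per library that the methods of the study give. Another column, with a different whole number on every line, ran up to 164246712 in BxC and 141259142 in CxB, so that the totals came to 78.5% and 77.7% of its highest value. With RPM as reads per 1000000 uniquely aligned reads, a count of 0 allowed a level of at most 0.0233 RPM in BxC and at most 0.0273 RPM in CxB. Levels are given as RPKM, exon RPM per kb of exon, which compares genes per length. Levels and ratios of the members were also recomputed from distinct positions, in which reads with the same alignment and strand count once. The files hold 4.08 reads per position in BxC and 4.04 in CxB.

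Npy and Sst stood far above the other members in both brains. Npy reached 111 RPKM in BxC and 95.4 in CxB, and Sst 85.5 and 76.2. Avp was the next member at 3.99 and 5.89 RPKM, so that Sst exceeded Avp 21.4-fold in BxC and 12.9-fold in CxB, or 5.27-fold and 4.59-fold by distinct positions. Gal followed with 1.97 and 2.73 RPKM. Cartpt (1.43 and 1.25) and Trh (1.21 and 1.24) had overlapping intervals in both libraries. Crh lay at 0.482 and 0.642 RPKM, and Hcrt at 0.476 and 0.353. The intervals of Crh and Hcrt overlapped in BxC and not in CxB. Oxt was the lowest member, with 0.130 RPKM in BxC (0.0594 to 0.247) and 0.272 in CxB (0.155 to 0.441), and its interval met that of Hcrt in CxB. The order of the 9 levels was the same in both libraries, and neighbors not named here had separate intervals by reads. By positions the intervals of Gal and Cartpt and of Hcrt and Oxt also overlapped in BxC.

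**Figure D1:**
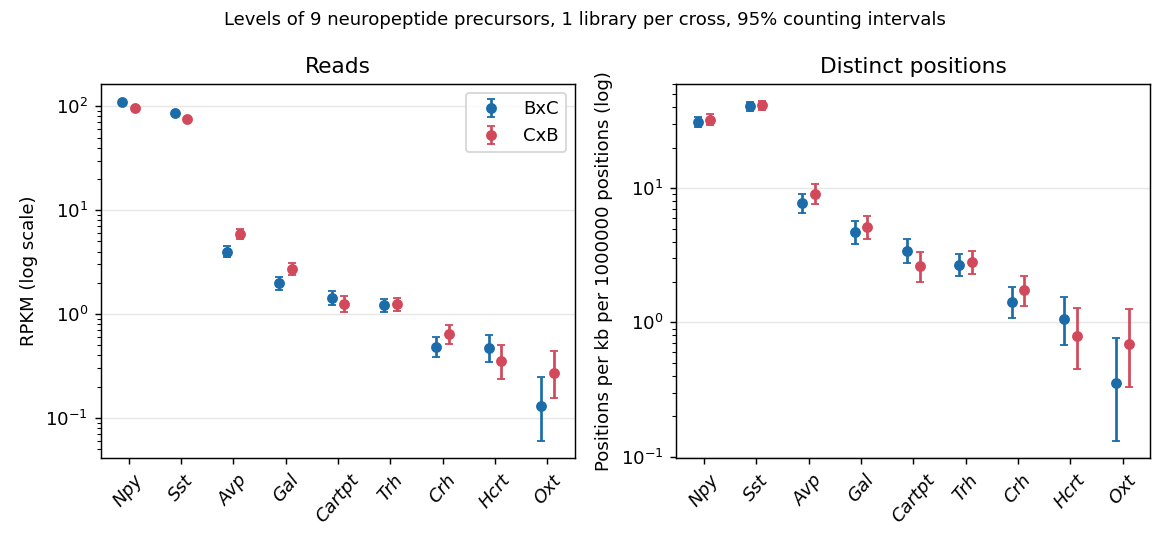
Level of each precursor in the BxC and CxB libraries, as RPKM (left) and as distinct positions per kb per 1000000 positions (right), on log scales with 95% counting intervals. By reads Npy lay at 111 and 95.4 and Sst at 85.5 and 76.2, while the other members lay at 5.89 or below; by positions Sst (40.7 and 41.6) lay above Npy (31.3 and 32.4).

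The order at the top depended on what was counted. By reads Npy exceeded Sst 1.30-fold in BxC and 1.25-fold in CxB, with separate intervals. By distinct positions per kb per 1000000 positions, Sst lay at 40.7 in BxC and 41.6 in CxB, and Npy at 31.3 and 32.4. Npy had 14.4 and 11.9 reads per position and Sst 8.56 and 7.41, against 1.39 to 2.63 for the other members. Npy reads filled 51.5% of its possible start positions on both strands in BxC, and Sst reads 66.9%. Where starts fill up in this way, counts of positions understate the level. For the low members positions were not limiting, since none but Avp filled over 7% of its starts and Avp filled 11.4% and 12.2%.

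Npy and Sst were also among the more abundant mRNAs of the whole brain. Of 22380 protein-coding genes, 196 lay above Npy in BxC and 248 in CxB, and 301 and 344 lay above Sst. Avp had 8174 and 6618 genes above it, and Oxt 15408 and 14454. In bulk tissue, fewer cells of a type and less RNA per cell cannot be told apart. The low levels of the hypothalamic peptides thus refer to the brain as a whole.

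Avp (ENSMUSG00000037727.6, chr2:130406356-130408290, minus strand) and Oxt (ENSMUSG00000027301.7, chr2:130401909-130402790, plus strand) lie tail to tail, 3565 bases apart. Avp encodes vasopressin, which acts on water retention and vessel tone, and Oxt encodes oxytocin, which acts on birth, lactation and social behavior. Both peptides have 9 residues, and their codons, read from the mm9 genome, differ at 5 of 27 bases, shown in capitals. They are printed because reads over the bases in capitals tell the 2 genes apart.
Avp: tgctacTtccagaactgcccAAGAggc
Oxt: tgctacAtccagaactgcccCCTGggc
The Avp codons (chr2:130408182-130408208) were overlapped by 48 reads in BxC and 37 in CxB. The Oxt codons (chr2:130402003-130402029) were overlapped by 1 read in each library. In BxC this read covered only the last codon, which is the same in both genes. In CxB it also covered the run of capitals before that codon.

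Avp had 297 exon reads at 141 positions in BxC and 373 reads at 142 positions in CxB, and Oxt had 9 reads at 6 positions and 16 reads at 10 positions. Per length Avp thus exceeded Oxt 30.7-fold in BxC (16.0 to 67.8) and 21.7-fold in CxB (13.2 to 38.4). By distinct positions the excess was 21.9-fold and 13.2-fold.

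The comparison of these paralogs was limited by sequence they share. Both transcripts hold an identical run of 127 bases, which begins at the end of exon 1 and lies otherwise in exon 2, where most of the neurophysin carrier protein is encoded. It stands at bases 156 to 282 of the Oxt transcript and 144 to 270 of the Avp transcript. It is printed since no 36-base read lying inside it can be placed in one gene.
Shared run: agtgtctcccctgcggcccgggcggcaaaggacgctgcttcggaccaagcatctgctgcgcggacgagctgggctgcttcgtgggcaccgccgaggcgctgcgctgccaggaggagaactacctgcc
Of the 36-base windows of the exons, 80.9% were unique in the genome for Avp and 76.2% for Oxt, against 100% for each of the other 7 members. The 90 windows shared within single exons held 0 reads of either gene in both libraries. Avp had no read over bases 176 to 236 of its joined exons in BxC and none over bases 169 to 235 in CxB, both stretches within the shared run. With all exon reads scaled to the uniquely alignable length, Avp exceeded Oxt 28.9-fold in BxC and 20.4-fold in CxB, so that this scaling moved the excess little. The size of the excess depended on which reads were counted. Reads lying wholly in unshared exon windows amounted to 652 per kb of windows for Avp in BxC and 861 in CxB. Oxt had 17.54 per kb in each library, from only 6 reads. By this count the excess was larger in both libraries, and larger in CxB than in BxC.

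Oxt was near the limit of what these libraries show. Unspliced reads lying wholly in its exons amounted to 13.9 per kb of possible starts in each library, the scale of all densities below unless another is named. The introns of Oxt held 18.2 per kb in BxC (5.90 to 42.4) and 3.64 in CxB (0.0921 to 20.3), intervals that overlapped those of the exons. The flanks, taken from 500 to 5000 bases away and clear of other genes, held 2.54 per kb in both libraries. The upstream flank alone held 4.26 (2.56 to 6.65) and 3.36 (1.88 to 5.54), and these intervals met those of the exons over all possible starts (5.10 to 30.2 in each library). Spliced reads gave direct evidence of Oxt mRNA. The second intron was crossed by 1 spliced read in BxC and by 9 at 3 positions in CxB, and the first by none in either. By contrast Avp had 31 and 24 spliced reads and 0 unspliced reads across its 2 introns. Exons of Avp held 528 reads per kb in BxC and 697 in CxB, and its introns 14.8 and 2.33.

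Crh (ENSMUSG00000049796.4, chr3:19593401-19595396, minus strand) encodes corticotropin-releasing hormone, which drives the pituitary side of the stress response. It had 82 reads at 59 positions in BxC and 93 reads at 62 positions in CxB. The 41 codons of the peptide (chr3:19593922-19594044) are printed as the part of the mRNA that makes the hormone, with the 2 codons that follow it, a signal for amidation and cleavage, in capitals.
Crh: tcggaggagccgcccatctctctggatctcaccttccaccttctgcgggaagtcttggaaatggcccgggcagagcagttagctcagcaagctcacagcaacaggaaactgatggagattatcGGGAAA
The peptide codons were overlapped by 13 reads in BxC and 12 in CxB. Exons of Crh held 59.2 unspliced reads per kb in BxC and 71.2 in CxB. Its single intron held 18.7 (9.67 to 32.7) and 3.12 (0.378 to 11.3), and was crossed by 5 and 3 spliced reads.

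Trh (ENSMUSG00000005892.4, chr6:92192055-92194644, minus strand) encodes thyrotropin-releasing hormone, a tripeptide that its precursor carries in several copies. The mouse coding sequence held 5 copies, each flanked by paired basic codons. They are printed 5′ to 3′ along the mRNA, with the codons of the tripeptide in capitals, since the same 3 residues are spelled with different bases.
Trh copy 1: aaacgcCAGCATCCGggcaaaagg
Trh copy 2: aaacgaCAGCACCCTggccgacgt
Trh copy 3: aagcggCAGCACCCTggcaggcga
Trh copy 4: aagaggCAGCATCCAggccggagg
Trh copy 5: aaacgtCAGCATCCTggcaaaagg
Copies 1 to 5 were overlapped by 15, 10, 16, 4 and 4 reads in BxC and by 4, 3, 10, 3 and 6 in CxB, so that each copy was seen in each library. Trh had 216 reads at 118 positions in BxC and 189 reads at 106 positions in CxB. Its last exon, of 1065 bases, carried 199 and 183 of them. Exon bases after the coding sequence held 202 reads per kb in BxC (164 to 247) and 209 in CxB (169 to 254). The coding bases held 146 (119 to 177) and 112 (88.3 to 139), so that the intervals overlapped in BxC and not in CxB. By distinct positions, 93.6 against 86.0 per kb in BxC and 111 against 63.0 in CxB, the intervals overlapped in both. In the Trh introns there were 2.64 and 6.16 reads per kb.

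Hcrt (ENSMUSG00000045471.4, chr11:100622383-100624245, minus strand) encodes the precursor of 2 orexin peptides, which promote wakefulness and feeding. It had 46 reads at 25 positions in BxC and 29 reads at 16 positions in CxB, which covered 50.1% and 32.6% of its exon bases. The codons of both peptides, of 33 and 28 residues, are printed to show where the few reads fell, with the 3 following codons in capitals.
Hcrt, 33 residues: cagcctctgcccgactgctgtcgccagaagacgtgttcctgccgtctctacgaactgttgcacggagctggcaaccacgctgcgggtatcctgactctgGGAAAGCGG
Hcrt, 28 residues: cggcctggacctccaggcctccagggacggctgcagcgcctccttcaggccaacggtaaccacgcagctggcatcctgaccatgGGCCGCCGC
The 33 codons of the first (chr11:100623306-100623404) were overlapped by 7 and 4 reads and the 28 of the second (chr11:100623213-100623296) by 10 and 6. The annotation holds 2 forms of Hcrt, one that ends with the whole of exon 2 and one that leaves exon 2 early and joins a further exon of 163 bases. That exon, which belongs to the latter form alone, had 0 reads in both libraries. The intron before it had 0 spliced reads, while the intron between the first exons had 2 in BxC and 0 in CxB. Exons of Hcrt held 68.3 and 45.0 unspliced reads per kb, its introns 3.83 in each library, and the 626 bases of downstream flank 22.0 and 20.3.

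Cartpt (ENSMUSG00000021647.6, chr13:100668439-100670638, minus strand) encodes the CART peptides, which reduce feeding. It had 161 reads at 94 positions in BxC and 120 reads at 62 positions in CxB, with 0 and 1 reads inside its introns. In rodents its transcript is known to be spliced into a longer and a shorter precursor form. The annotation used here held the longer form, and the libraries held both junctions. The shorter form left out the first 39 bases of exon 2 (chr13:100669996-100670034).
Cartpt segment: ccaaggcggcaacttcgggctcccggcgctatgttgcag
The 18 bases on each side of both junctions are printed to show what a spliced read crossed, with the bases of exon 2 in capitals.
Longer form: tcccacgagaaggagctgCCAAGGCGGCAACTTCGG
Shorter form: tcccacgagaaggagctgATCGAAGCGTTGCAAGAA
In BxC 6 reads at 4 positions crossed the junction of the shorter form and 1 that of the longer form. In CxB 3 reads at 2 positions crossed the shorter and 0 the longer. The share of the shorter form was 85.7% in BxC (42.1 to 99.6, Clopper-Pearson) and 100% in CxB (29.2 to 100). These counts do not separate the libraries. The 39-base segment itself was overlapped by 2 reads in BxC and 1 in CxB.

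Gal (ENSMUSG00000024907.6, chr19:3409919-3414472, minus strand) encodes galanin, which dampens firing and release in many neuroendocrine neurons. It had 181 reads at 106 positions in BxC and 213 reads at 99 positions in CxB. The 29 codons of the peptide, which span an intron, are printed with the 3 following codons in capitals.
Gal: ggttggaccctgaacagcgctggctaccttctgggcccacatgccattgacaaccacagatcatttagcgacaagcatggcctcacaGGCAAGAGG
They were overlapped by 40 and 24 reads. Spliced reads were found across all 5 introns of Gal in each library, with 69 reads in BxC and 91 in CxB. Counting every overlapping read, spliced ones included, per kb of exon length, exon 5 was the densest with 731 and 1231, while the last exon held 219 and 239. This measure raises short exons such as exon 5, of 78 bases, since reads that only touch an edge count in full. Exon 4, of 90 bases, held 711 and 578, and in BxC its order with exon 5 was not settled. On the scale of possible starts, exon bases after the coding sequence held 118 unspliced reads per kb in BxC (68.8 to 189) and 48.6 in CxB (19.5 to 100), against 218 (158 to 294) and 259 (193 to 340) for the coding bases. By distinct positions the intervals overlapped in both libraries. They were 69.4 (33.3 to 128) against 142 (94.4 to 205) in BxC and 34.7 (11.3 to 81.0) against 122 (78.1 to 181) in CxB.

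Npy (ENSMUSG00000029819.6, chr6:49772709-49779506, plus strand) encodes neuropeptide Y, an appetite-stimulating peptide that many forebrain interneurons release with GABA. It had 8088 exon reads at 560 positions in BxC and 5922 at 498 positions in CxB. The 36 codons of the peptide are printed, with the 3 following codons in capitals, as the most deeply read peptide here.
Npy: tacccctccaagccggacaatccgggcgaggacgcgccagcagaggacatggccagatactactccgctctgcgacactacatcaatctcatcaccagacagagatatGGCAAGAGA
They were overlapped by 2171 reads in BxC and 1560 in CxB. Its 3 introns were crossed by 482 and 364 spliced reads. Introns of Npy held 60.1 and 47.3 reads per kb, the highest intron density of any member in BxC, and exons 17566 and 12829. Counting every overlapping read per kb of exon length instead, the first exon of Npy was the least dense, with 5000 and 4076, and exon 3 the most, with 24037 and 18630. This measure raises short exons such as exon 3, of 81 bases, since reads that only touch an edge count in full. The last exon, of 205 bases, held 18429 and 12961, and its order with exon 3 was not settled.

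Sst (ENSMUSG00000004366.3, chr16:23889667-23890930, minus strand) encodes somatostatin, which inhibits growth hormone release and marks a class of forebrain interneurons. It had 6601 reads at 771 positions in BxC and 5006 at 676 positions in CxB. Somatostatin of 14 residues is cut from the very end of the precursor, and its codons (chr16:23889818-23889859) are printed after the 2 basic codons of the cut site, in capitals.
Sst: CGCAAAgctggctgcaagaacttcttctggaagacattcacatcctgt
The peptide codons were overlapped by 736 and 564 reads. The single intron of Sst was crossed by 156 and 85 spliced reads. Exon bases after the coding sequence were denser than coding bases by reads, at 25966 against 9820 per kb in BxC and 20405 against 6871 in CxB. By distinct positions the order was reversed, with 931 per kb (764 to 1124) against 1500 (1359 to 1651) in BxC. In CxB it was 862 (701 to 1049) against 1317 (1185 to 1459). The contrast thus depended on what was counted, and counts of positions understate the level where starts fill up. Intron density was 28.6 (16.9 to 45.2) in BxC and 69.8 (50.7 to 93.8) in CxB, from 18 and 44 reads. These intervals were separate, but those by distinct positions, 25.4 per kb (14.5 to 41.2) and 38.1 (24.4 to 56.7), overlapped.

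**Figure D2:**
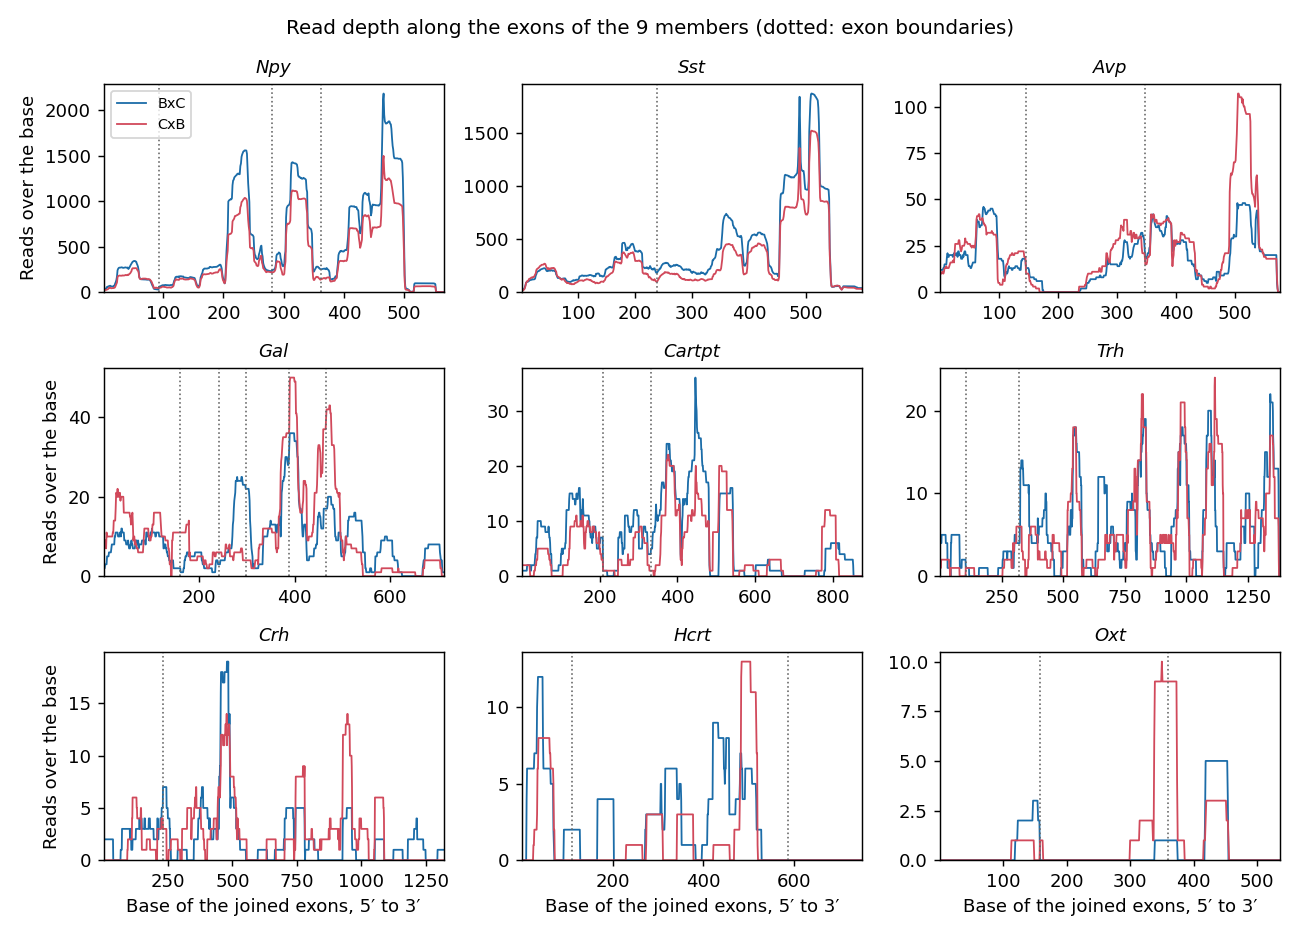
Number of reads over each base of the joined exons, 5′ to 3′, for each member in BxC and CxB, with dotted lines at exon boundaries and a separate vertical scale per gene. Npy and Sst were read over 99.6% or more of their bases, Avp shows the gap within the run it shares with Oxt, and Hcrt shows 0 reads in the last exon, which 1 of its 2 annotated forms holds.

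**Figure D3:**
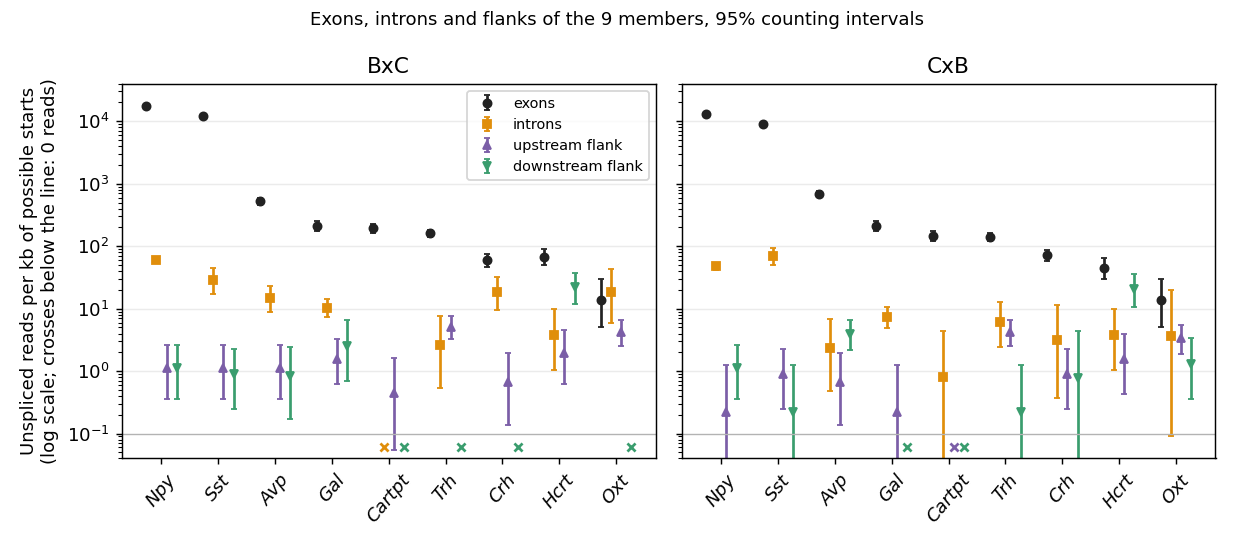
Unspliced reads per kb of possible start positions in exons, introns and flanks of each member in BxC (left) and CxB (right), on a log scale with 95% counting intervals, and crosses for 0 reads. Exon density lay above intron and flank density apart from Oxt in BxC (13.9 in exons and 18.2 in introns). Exon intervals met those of the introns and the upstream flank for Oxt in both libraries and that of the downstream flank for Hcrt in CxB (45.0 and 20.3).

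Most crossings of member introns were spliced, mainly in the genes with many reads. Pooled over the 20 introns of the annotation, 756 spliced reads in BxC and 583 in CxB crossed member introns. Reads crossing an intron edge unspliced, averaged over the 2 edges, amounted to 7.5 and 9.5, so that 99.0% and 98.4% of crossings were spliced. By distinct positions the shares were 97.0% and 96.0%. Npy, Sst and Gal gave 482, 156 and 69 of the spliced reads in BxC and 364, 85 and 91 in CxB. The share was lower in some of the members with few crossings. Crh had 83.3% and 85.7%, and Oxt in BxC had 66.7% with 1 spliced read. Cartpt in CxB had 1 spliced read at annotated junctions, or 66.7%, and with the 3 reads of its shorter form 4, or 88.9%. The intron of Hcrt that ends inside exon 2 of another form had 3 reads across that end in CxB, which lie in that exon and were counted here as unspliced. Without that intron and with the shorter form of Cartpt, the pooled shares were 99.0% and 98.7%.

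Strand could not be used to separate overlapping transcripts. Over members 40.8% of exon reads in BxC and 39.7% in CxB lay on the strand of the gene, and the median over 13884 protein-coding genes was 43.9% and 43.2%. Avp had the lowest share among members with at least 100 reads, 25.9% (21.0 to 31.3) and 29.0% (24.4 to 33.8). A share at or below that of Avp was found in 1.21% of those genes in BxC and 1.97% in CxB, and in 2.98% and 4.92% of the 2112 with 100 to 500 reads. No other gene of the annotation overlaps the exons of the 9 members.

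The libraries were compared by the ratio of each member. A ratio is the log2 of RPM in CxB over RPM in BxC, and a gene was compared where it had at least 100 reads in each library, which 6 members had. None of the 6 passed 1.5-fold in either direction. Over all 15427 genes with that many reads, 0.473% passed 1.5-fold higher in CxB and 0.622% lower. Of the 2935 genes with 100 to 500 reads, among them Avp, Gal, Trh and Cartpt, 1.87% and 2.18% did, so that a count of 0 among 6 is near the background. The median ratio was −0.06 over the 6 members and −0.0011 over all genes.

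Avp had the highest ratio of the 6, at 2.30 RPM in BxC and 3.40 in CxB, a log2 ratio of 0.56 (0.34 to 0.79). It lay above 99.4% of all compared genes and above 97.5% of those with 100 to 500 reads. By distinct positions its ratio was 0.23 (−0.12 to 0.58), an interval that includes 0. A single position held 29 of the 373 reads in CxB, and the largest position in BxC held 15 of 297. Without the largest position of each library the log2 ratio of Avp by reads was 0.52. Gal likewise had a log2 ratio of 0.47 (0.18 to 0.76) by reads and 0.12 (−0.29 to 0.53) by positions. Its ratio by reads lay above 98.8% of all compared genes and above 95.1% of those with 100 to 500 reads.

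Npy and Sst were lower in CxB by reads, with log2 ratios of −0.22 (−0.27 to −0.17) and −0.17 (−0.22 to −0.11). Among all compared genes 9.17% lay below Npy and 14.3% below Sst, so that neither stood apart from the spread between the libraries. By distinct positions their ratios were 0.05 (−0.13 to 0.23) and 0.03 (−0.12 to 0.18). Trh had a ratio of 0.04 (−0.25 to 0.33) and Cartpt −0.19 (−0.54 to 0.16). The members under 100 reads had wide intervals that include 0, Crh at 0.41 (−0.03 to 0.86), Hcrt at −0.43 (−1.16 to 0.27) and Oxt at 1.06 (−0.20 to 2.42).

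**Figure D4:**
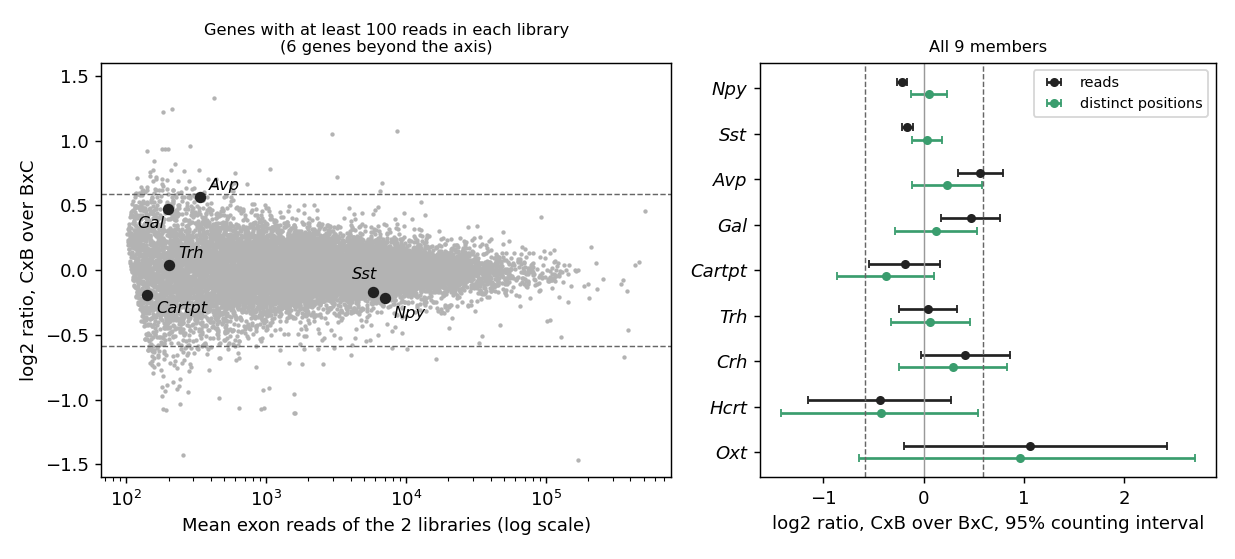
Left, log2 ratio of CxB over BxC against the mean number of exon reads on a log scale for the 15427 compared genes (gray; 6 lie beyond the axis) and the 6 members compared (black), with dashed lines at 1.5-fold. Right, the ratio of each member with its 95% counting interval, by reads and by distinct positions. Avp lies at 0.56 by reads and 0.23 by positions, and no compared member lies beyond the dashed lines.

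Receptors for the member peptides were mostly low. The 22 receptor genes measured had a median of 0.522 RPKM in BxC and 0.539 in CxB, and 7 exceeded 1 RPKM in both libraries. The somatostatin receptors Sstr2 (15.1 in BxC and 14.4 in CxB) and Sstr1 (8.77 and 9.34) led, followed by Npy1r for neuropeptide Y (3.72 and 4.05) and Crhr1 for Crh (3.71 and 3.85). For vasopressin, Avpr1a lay at 0.691 and 0.781 RPKM, and for galanin Galr2 lay at 1.26 and 1.51. The orexin receptor Hcrtr1 lay at 1.02 and 1.45, and Trhr, for thyrotropin-releasing hormone, at 0.404 and 0.500.

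Of the 16 receptors with at least 100 reads in each library, 2 passed 1.5-fold higher in CxB and 0 lower, beside 0.473% and 0.622% of all compared genes and 1.87% and 2.18% of those with 100 to 500 reads, the range of both. Oxtr, the oxytocin receptor, had 361 reads in BxC and 484 in CxB, a log2 ratio of 0.66 (0.46 to 0.86). Npy2r had 126 and 183 reads, a ratio of 0.77 (0.44 to 1.11). By distinct positions the ratios were 0.24 for Oxtr and 0.25 for Npy2r, short of 1.5-fold. The median over the 16 was 0.13.

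Genes for proteins that store and cut the precursors had higher levels than most members. The 17 such genes had a median of 24.2 RPKM in BxC and 24.6 in CxB, against 1.43 and 1.25 over the members. Cpe, which trims basic residues, lay at 203 RPKM in BxC and 237 in CxB. The convertase inhibitor precursor Pcsk1n lay at 124 and 142, and the granule protein Scg3 at 59.4 and 58.2. Of the convertases themselves, Pcsk2 lay at 5.13 and 5.48 RPKM and Pcsk1 at 0.459 and 0.644. The amidating enzyme Pam lay at 5.61 and 5.84. None of the 17 passed 1.5-fold, and their median ratio was 0.06.

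Set beside 35 other precursor genes, Npy and Sst kept their place. The third precursor was Cck at 10.5 and 10.2 RPKM, so that Sst exceeded it 8.12-fold in BxC and 7.44-fold in CxB, or 3.49-fold and 3.53-fold by distinct positions. Cort (9.31 and 7.81), a relative of Sst, and Nts (8.41 and 7.29) came next. Npy and Sst together made up 69.4% and 66.7% of the summed RPKM of all 44 precursors, and 34.4% and 35.4% of the sum by distinct positions. Avp ranked 10 of 44 in BxC and 9 in CxB, and Oxt 34 and 31. Of the 35 others, 13 could be compared and none passed 1.5-fold.

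**Figure D5:**
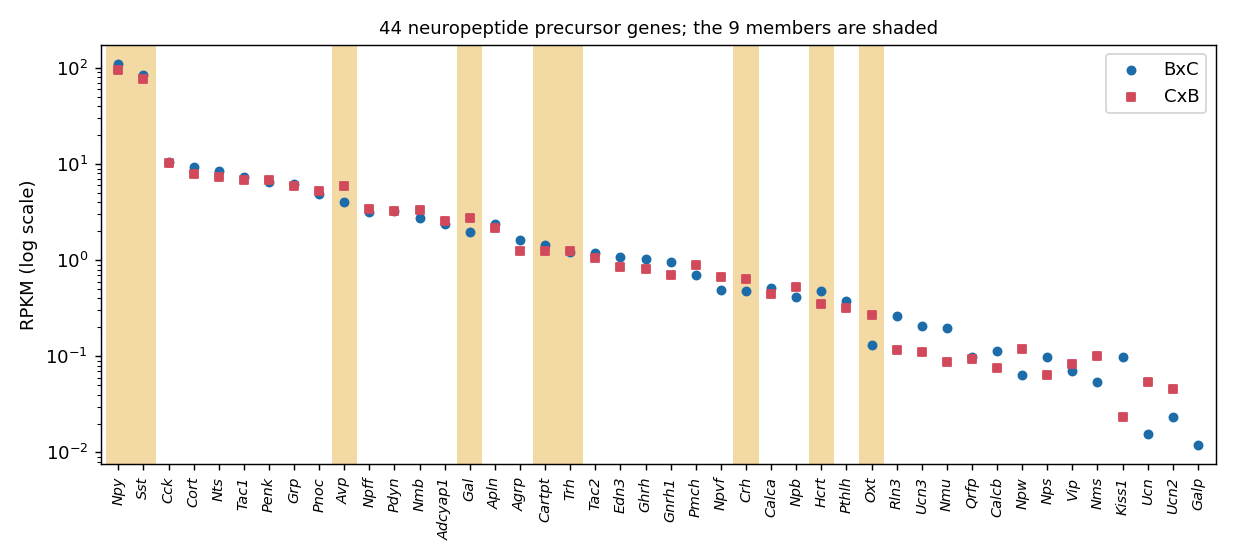
Level of 44 precursor genes in BxC (circles) and CxB (squares) in RPKM on a log scale, ordered by the mean of both libraries, with the 9 members shaded; a gene with 0 reads in a library has no point there. Npy and Sst lie above the third gene, Cck at 10.5 and 10.2, and Oxt lies among the low genes.

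Transcription factors with roles in the neurons that make these peptides were read in both brains, over a wide range. These are levels of the whole brain and do not show which cells held the RNA. Pou3f2 (50.7 and 48.3 RPKM), Arnt2 (39.3 and 38.6) and Otp (12.1 and 12.3), which specify Avp, Oxt and Crh neurons, had the highest levels of 17 hypothalamic factors, whose median was 2.98 and 2.71. Sim1, the partner of Arnt2 in those neurons, lay at 0.213 and 0.255 RPKM. Among 10 factors of forebrain interneurons, Dlx1 lay at 30.4 and 29.9 RPKM and Dlx5 at 12.7 and 12.0. None of the 14 hypothalamic and 10 interneuron factors compared passed 1.5-fold, and the median ratio was −0.03 in both lists.

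The tissue label was checked against markers. All 6 neuronal markers measured exceeded 16 RPKM in both libraries, with Tubb3 at 974 and 840, Stmn2 at 343 and 355 and Dcx at 68.1 and 74.5. Of 12 pituitary genes, 4 had 0 reads in both libraries, among them the hormone genes Gh and Cga. The summed level of the pituitary list was 3.03 RPKM in BxC and 3.57 in CxB, with Pou1f1 at 0.673 and 0.914 and Lhb at 0.251 and 0.423. Blood markers summed to 340.0 and 274.0 RPKM, led by Hbb-b1 (187 and 153), Hba-a1 and Hba-a2. All 5 blood genes compared were lower in CxB by reads, with log2 ratios of −0.51 to −0.28. By distinct positions 2 were lower, Alas2 (−0.32) and Hbb-b2 (−0.17), and 3 were higher, Hbb-b1 (0.10), Hba-a1 (0.20) and Hba-a2 (0.24). Meningeal genes summed to 136 and 119 RPKM, led by Ptgds, Col1a1 and Col1a2. Choroid plexus genes summed to 263 and 291, led by Ttr, Otx2 and Clic6. Retinal and pineal genes summed to 0.825 and 1.20, with Tph1 at 0.253 and 0.282. The part of blood or other tissue in the member ratios was not tested.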

How the data were processed

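The authors aligned 36-base reads with Novoalign to mm9 (names per the labels) and deposited uniquely aligned reads in BED format; which of the alignments in their methods was deposited is not given in the sources used here. The fourth column of the deposited files was used as the count of reads per line, and this meaning was inferred from its whole numbers; the fifth was set only against the total of the fourth, and 0 columns were left without a sample. Several lines can share 1 position and strand, and they were merged to count distinct positions. The library protocol marks strand with dUTP by the paper, but reads fell on both strands and were counted on either.

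All 22 chromosome names matched NCBIM37, and 16 reads passed the end of chromosome 9. A read was counted for a gene where an aligned block overlapped the union of its exons. Levels carry exact Poisson intervals, and ratios and shares exact Clopper-Pearson intervals, at 95%. Intervals and limits (3 reads for a count of 0) cover counting error only, since PCR copies are not separate molecules. With 1 library per cross there was no test. Unspliced reads within exons, introns and flanks were divided by the number of possible 36-base starts. An intron crossing needed 5 bases on each side. Named genes were all members, a receptor of each peptide where listed and, from each list, the 3 highest by mean level and those past 1.5-fold. Sim1, Alas2, Hbb-b2, Pcsk1, Pcsk2, Pam, Gh and Cga were named after their values were seen. Members and lists were chosen with earlier results of these data known. Some genes of the rule and of the lists are not reported here by name. Counting and intervals were tested on simulated data. Python 3.11.15 was used with NumPy 2.4.6, pandas 2.3.3 and SciPy 1.17.1.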

Additional observations from a re-analysis of the deposited data

Results flagged for a closer look

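Reads outside the annotated exons of members exceeded the 3 reads that a count of 0 allows in both libraries at 6 flanks, each taken from 500 to 5000 bases from the gene and clear of other genes. Upstream of Trh there were 23 reads at 20 positions in BxC and 19 at 14 positions in CxB, and upstream of Oxt 19 reads at 9 positions and 15 at 12 positions. The 626 bases downstream of Hcrt held 13 reads at 7 positions and 12 at 8 positions, and its 2600 bases upstream 5 and 4. Downstream of Npy there were 5 reads in each library, and upstream of Sst 5 and 4. The Cartpt junction that the annotation does not hold, which skips 39 bases, had 6 reads in BxC. No control sample was analysed here against which to set these counts.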

How the results depend on the processing

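No paired analysis was possible because each cross had 1 library. Of 120 values recomputed under alternatives, 93 stayed within the counting interval, or for counts within 1.5 times, and 27 moved further. No member that met the read minimum passed 1.5-fold under any of 7 alternatives, among them at least 10 reads and the exons of the longest transcript, and the planned 2-fold limit could not change a count of 0. By sense-strand reads Avp had a log2 ratio of 0.72 and Hcrt −0.63, past 1.5-fold but under the minimum of reads, and Hcrt had −0.60 without its position with the most reads. Oxt, also under the minimum, ran from 0.23 by sense-strand reads to 1.11 without that position, against 1.06 by all reads. Sense-strand reads alone left 2 members with at least 100 reads, Npy and Sst, in place of 6. They also lowered the median level of the members to 0.577 RPKM in BxC and 0.542 in CxB, from 1.43 and 1.25, since fewer reads were counted, and reads per position from 8.34 to 6.42 and from 7.16 to 5.37. Counting lines of the files gave medians of 2.94 and 2.46 per kb per 1000000 lines, and distinct positions, an alternative chosen after seeing the data, 3.40 and 2.82 per kb per 1000000 positions. These are other scales. The log2 range of member levels fell from 7.86 to 5.91 by lines and 5.27 by positions in BxC, and from 8.46 to 6.39 and 5.92 in CxB, as Npy and Sst had the most reads per position. This range was taken over members with a count of at least 10 in the library. Oxt was thus left out in BxC, with 9 reads, and kept in CxB, with 16, so that the ranges of the libraries cannot be compared. The share of member reads on the sense strand was 53.3% and 53.4% by lines and 53.0% and 52.9% by positions, against 40.8% and 39.7% by reads; the cause was not tested. The spliced share was 97.0% and 96.0% by positions, against 99.0% and 98.4%, and 99.0% and 98.7% by form, an alternative also chosen after seeing the data. Of 63 ratios of single members, 60 kept their sign, and Npy, Sst and Trh each changed it once. Depth limited Oxt, Hcrt and Crh, which had fewer than 100 reads in each library.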
